A study of Homo sapiens with 9 samples.

Results

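The genes described here are 32 transcriptional targets of the tumour suppressor p53, chosen by name: MDM2, MDM4, FAS, TP53INP1, TP53I3, CCNG1, GDF15, SESN1, RRM2B, ZMAT3, BTG1, BTG2, GADD45A, PLK2, PLK3, XPC, DDB2, FDXR, TNFRSF10A, TNFRSF10B, TIGAR, PPM1D, PERP, POLH, TRIAP1, AEN, PHLDA3, SPATA18, EDA2R, RPS27L, CYFIP2 and IER5. Of these, 30 had a probe set assigned to that gene alone, out of 19775 genes measured in this way, and BTG2 and FDXR are not analysed here. No measured member was lost to a filter on low values, because none was applied. The cells were A549, an established human lung adenocarcinoma line known to keep wild-type p53 and to have lost KEAP1 function, so that NRF2 is active without added stress. A total of 9 cultures of this line, with no other treatment named in the labels, were compared in 3 groups of 3 biological replicates. The mock group received the transfection reagent alone, the NS siRNA group a non-targeting siRNA at 25 nM, and the Nrf2 siRNA group an siRNA against NRF2 (gene symbol NFE2L2) at 25 nM. RNA was collected 96 h after transfection and read on 1 Affymetrix array per culture. Each value is a log2 expression level of a probe set, on which a difference of 1 is a 2-fold change.

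As background, p53 is a transcription factor that is normally kept scarce by the ubiquitin ligase MDM2 and its partner MDM4. DNA damage and other stress release it, and it then binds response elements, each a pair of copies of a 10-base consensus, and switches on genes for cell cycle arrest, DNA repair, cell death and its own shutdown. Several targets, among them SESN1, TIGAR and GDF15, also act in redox balance, metabolism or the wider stress response, and some are also switched on by other transcription factors.

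The response elements that a search found near member start sites are shown first. The genes were listed by name and not by this search, and the expression values did not enter it. RefSeq promoter sequences (GRCh38.p14, 250 bases before to 50 after each start) were found for 26 of the 32 genes. The p53 response element was searched with the 2 copies at most 1 base apart, the invariant C and G of each copy kept, and at most 2 mismatches elsewhere; the consensus is its own reverse complement, so both strands were covered. A match was present in 4 of the 26 members (15.4%), in 184 of all 27305 genes with a promoter sequence (0.674%), and in 0 of 36 other p53 target genes. The match is in capitals below and the flanking bases are in lower case, all on the plus strand.
MDM2: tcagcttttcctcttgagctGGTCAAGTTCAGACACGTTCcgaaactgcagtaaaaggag
FAS: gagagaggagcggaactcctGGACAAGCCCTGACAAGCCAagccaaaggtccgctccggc
DDB2: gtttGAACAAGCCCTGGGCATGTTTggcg
AEN: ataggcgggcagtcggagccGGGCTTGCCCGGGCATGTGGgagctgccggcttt
The printed stretch of MDM2 is chr12:68808903-68808962, and its match begins 94 bases before a downstream start site of the gene, known as the p53-responsive P2 promoter. The stretch of FAS is chr10:88991289-88991348, where the match begins 122 bases before a downstream start. In DDB2 (chr11:47214975-47215003) the match has 0 mismatches and a spacer of 1 base and begins 5 bases after the start. In AEN (chr15:88621286-88621339) it begins 34 bases before the start. The matches in MDM2, FAS and AEN have 2 mismatches each. A second DDB2 match, not printed, overlaps the printed one, has 1 mismatch and begins 5 bases before the start. A match describes letters in this window and not binding, and many known p53 elements lie in introns outside it.

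The siRNA target was measured first. NFE2L2 read 12.07, 11.92 and 11.98 in the mock arrays, 12.09, 12.03 and 12.15 after NS siRNA, and 10.12, 10.32 and 10.30 after Nrf2 siRNA, so the 3 knockdown arrays lay below all 6 others. Array medians over all probe sets lay between 7.51 and 7.57, arrays of a group correlated at 0.9979 to 0.9987, and no array stood apart. All 5 epithelial markers examined were measured; EPCAM, CDH1 and KRT19 rose against both controls after Nrf2 siRNA. The log2 of their summed level was 15.64 to 15.65 in mock, 15.77 to 15.78 after NS siRNA and 15.88 to 15.94 after Nrf2 siRNA. Of 5 fibroblast markers, LUM, COL3A1 and THY1 rose after Nrf2 siRNA against both controls while DCN and COL1A2 did not pass; the log2 sum was 10.13 to 10.25, 9.95 to 9.98 and 10.93 to 11.07 in the same order. Sums for 3 immune markers were 9.41 to 9.53, 9.49 to 9.59 and 9.84 to 9.96, with CD14 rising after Nrf2 siRNA, and for 3 endothelial markers 9.48 to 9.54, 9.56 to 9.61 and 9.42 to 9.58, with CDH5 higher after Nrf2 siRNA than in mock (0.23, adjusted p = 0.0308) and NS siRNA (0.19, adjusted p = 0.0468). On an array no marker reads 0, and the part of these markers in the results was not tested. With bulk RNA, a change in the number of cells of a kind and a change in RNA per cell cannot be told apart. The series has 1 Nrf2 siRNA group and no rescue, so a change caused by losing NRF2 cannot be told apart from off-target action of this siRNA or from differences between cultures.

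Most p53 target genes were higher in either siRNA group than in mock. After NS siRNA, 18 of 30 members rose and 3 fell against mock (70.0% called), where 15.6% of all genes rose and 15.2% fell (30.8% called). The 3 that fell were CCNG1, BTG1 and TP53I3. After Nrf2 siRNA, 21 of 30 rose and 3 fell against mock (80.0% called; all genes 16.4% and 16.7%, 33.0% called), and those that fell were PLK2, TNFRSF10A and TP53I3. These 2 comparisons share the mock arrays. The shares over all genes include dimmer genes, while all 30 members lay above the median of all probe sets. The median difference from mock over the members was 0.21 after NS siRNA (0.03 over all genes) and 0.27 after Nrf2 siRNA (-0.02 over all genes). The NS siRNA arrays lay above all mock arrays for 22 members and below them for 3 (all genes 23.9% and 19.5%), and the Nrf2 siRNA arrays for 23 and 2 (all genes 19.9% and 22.7%).

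The single arrays showed the same shift. Relative to each gene's mock mean, the median over the 30 members was 0.22, 0.23 and 0.23 in the NS siRNA arrays and 0.25, 0.29 and 0.24 in the Nrf2 siRNA arrays. The same median over all genes stayed between -0.03 and 0.04 in these 6 arrays. In each of the 6, 25 or 26 of 30 members lay above their mock mean, against 43.3% to 60.4% of all genes. In the 3 mock arrays themselves 18, 19 and 9 of 30 did (47.5%, 54.3% and 46.1% of all genes), with member medians of 0.00, 0.03 and -0.05. All 6 siRNA arrays are set against the same mock means. The mock group had the lowest of the 3 group means for 23 of 30 members, compared with 26.0% of all genes.

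**Figure D1:**
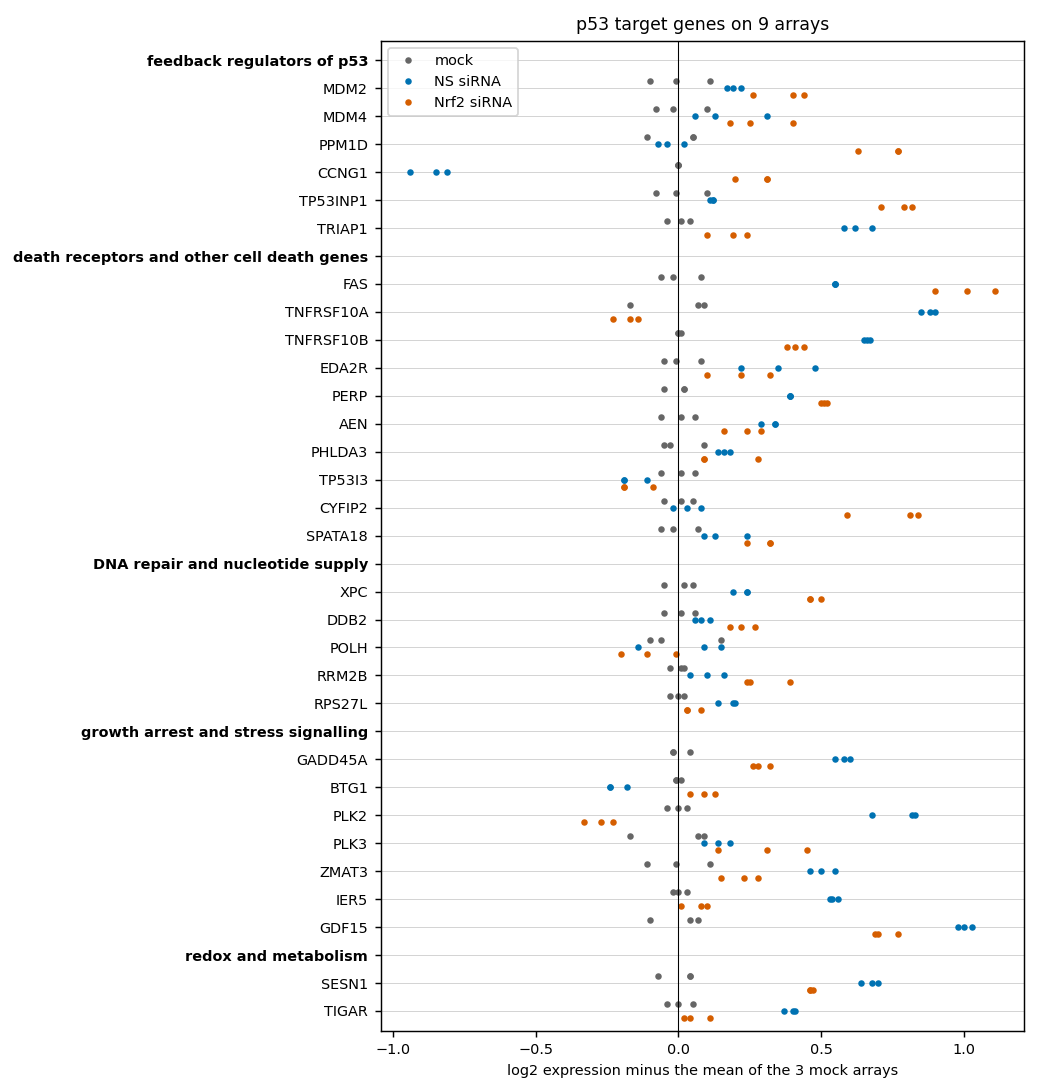
Each point is 1 array's log2 expression of a p53 target gene minus the mean of the 3 mock arrays of that gene (horizontal axis), for mock (grey), NS siRNA (blue) and Nrf2 siRNA (orange), with genes grouped by role. Most blue and orange points lie right of 0; CCNG1 after NS siRNA lies furthest left, at a mean of -0.87, and FAS after Nrf2 siRNA furthest right, at a mean of 1.01.

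Between the siRNAs themselves the members split. Against NS siRNA, 12 of 30 rose and 11 fell after Nrf2 siRNA (76.7% called), and their median difference was 0.00. Over all genes 21% rose and 26.6% fell in this comparison (47.6% called), with a median of -0.05. The median absolute difference was 0.25 over the members and 0.14 over all genes. The 3 Nrf2 siRNA arrays lay above all NS siRNA arrays for 11 members and below them for 11, where the shares over all genes were 23.1% and 31.0%. Group means were highest after NS siRNA for 15 members (49.0% of all genes), after Nrf2 siRNA for 14 (28.5%) and in mock for 1, TP53I3 (22.5%).

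**Figure D2:**
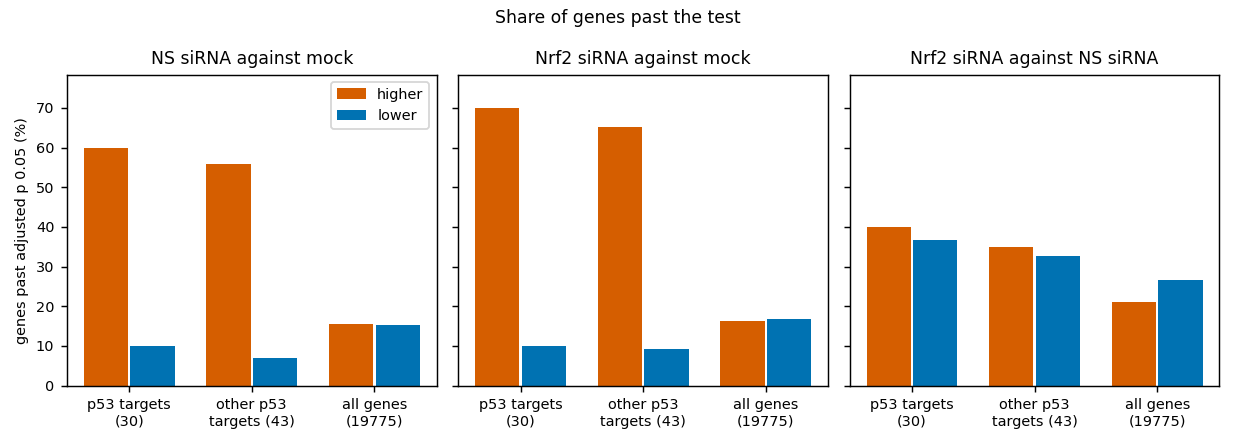
Bars give the percentage of genes higher (orange) or lower (blue) at adjusted p below 0.05 in each comparison, for the 30 p53 target genes, 43 other p53 target genes and all 19775 genes. Against mock the higher bars of both p53 lists, 60.0% and 55.8% after NS siRNA and 70.0% and 65.1% after Nrf2 siRNA, stand above those of all genes, at 15.6% and 16.4%.

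The feedback regulators of p53 were called higher against mock after Nrf2 siRNA in 6 of 6 cases (16.4% of all genes), and 4 of them rose and 1 fell against NS siRNA (21% and 26.6% of all genes). PPM1D, the phosphatase WIP1 that dephosphorylates p53 and its kinases, read 9.83, 9.83 and 9.67 in mock, 9.71, 9.80 and 9.74 after NS siRNA and 10.55, 10.55 and 10.41 after Nrf2 siRNA. The 3 Nrf2 siRNA arrays lay above all 6 controls, while the controls overlapped. PPM1D was 1.69-fold higher than in NS siRNA (0.75 ± 0.06 SE, log2; adjusted p = 2.73e-07) and 1.66-fold higher than in mock, and its other probe set moved the same way (0.72 and 0.60). TP53INP1, a stress protein that helps p53 promote cell death, was also highest after Nrf2 siRNA. It read 9.84, 10.02 and 9.91 in mock, 10.04, 10.04 and 10.03 after NS siRNA and 10.63, 10.74 and 10.71 after Nrf2 siRNA. The difference was 0.66 ± 0.05 from NS siRNA (adjusted p = 4.14e-07) and 0.77 ± 0.05 from mock, but its 2 dimmer probe sets, at mean levels of 7.97 and 5.29, did not pass in any comparison.

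CCNG1, cyclin G1, which recruits a phosphatase to MDM2, was the member in which the controls differed most in the downward direction. It read 12.26 in each mock array, 11.45, 11.41 and 11.32 after NS siRNA and 12.57, 12.57 and 12.46 after Nrf2 siRNA. None of the 3 groups overlapped. It was 1.83-fold lower after NS siRNA than in mock (-0.87 ± 0.05; adjusted p = 4.62e-08), and Nrf2 siRNA stood 2.20-fold above NS siRNA (adjusted p = 1.31e-09) but only 1.21-fold above mock (0.27 ± 0.05; adjusted p = 7.31e-04). The size of the CCNG1 change after Nrf2 siRNA therefore differed by control, and the gene has 1 probe set here.

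The change in MDM2 itself was small in its brightest probe set and larger in some others. Its brightest probe set read 9.99, 10.11 and 9.90 in mock, 10.19, 10.17 and 10.22 after NS siRNA and 10.26, 10.40 and 10.44 after Nrf2 siRNA, so the groups stood in that order without overlap. The rise against mock was 0.19 ± 0.06 after NS siRNA (adjusted p = 0.0311) and 0.37 ± 0.06 after Nrf2 siRNA (adjusted p = 4.23e-04), and the difference between the siRNAs was 0.18 ± 0.06 (adjusted p = 0.0298). Both weaker calls were lost in 5 and 4 of the 9 fits that left out 1 array (adjusted p up to 0.127 and 0.112). Of 10 MDM2 probe sets 5 were higher against mock after Nrf2 siRNA, 3 after NS siRNA, and none was lower. The largest differences from mock were in an MDM2 probe set at a mean level of 8.45. They were 0.64 after NS siRNA and 0.55 after Nrf2 siRNA, with -0.09 between the siRNAs, which did not pass. A dim MDM2 probe set, at 5.94, was 0.27 and 0.51 above mock in the same order. MDM4 differed from mock by 0.28 ± 0.08 after Nrf2 siRNA (adjusted p = 0.0123), a call that was lost without mock replicate 3 (0.057) or Nrf2 siRNA replicate 2 (0.0585), and 1 of its 6 probe sets was called lower. TRIAP1, a small inhibitor of apoptosis, behaved otherwise: it read 11.76, 11.79 and 11.71 in mock, 12.37, 12.43 and 12.33 after NS siRNA and 11.99, 11.94 and 11.85 after Nrf2 siRNA. It was highest after NS siRNA, 1.54-fold above mock, and stood 0.45 lower after Nrf2 siRNA (adjusted p = 8.80e-06); its rise of 0.17 over mock was lost in 3 of the 9 fits without 1 array.

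**Figure D3:**
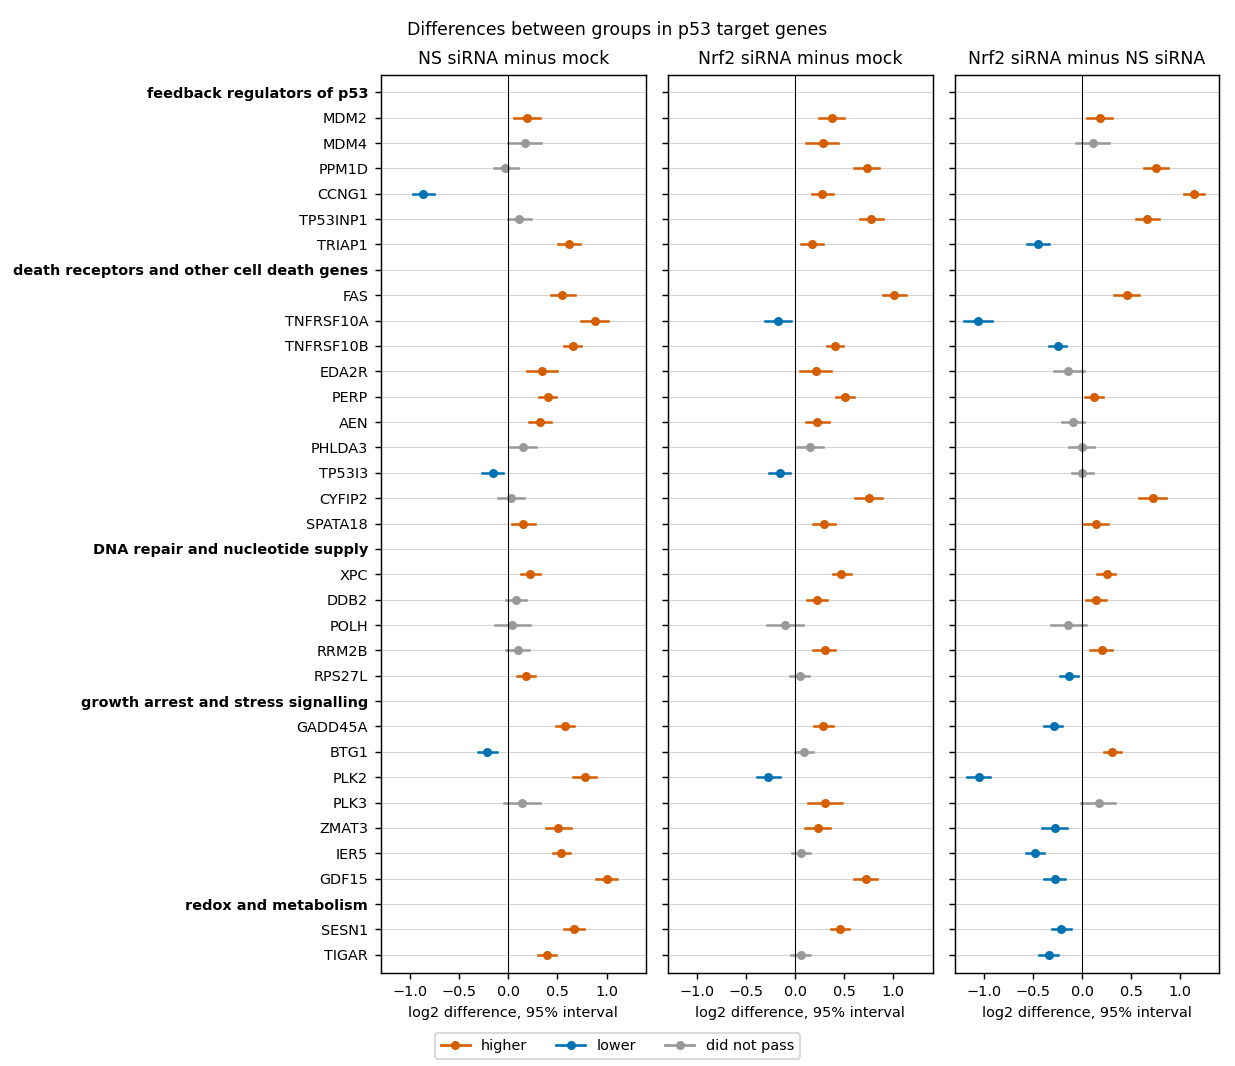
Points are log2 differences of each p53 target gene between groups from the linear model, lines are 95% intervals, and colour gives the call (orange higher, blue lower, grey did not pass). In the left and middle panels most points lie right of 0, while in the right panel 12 are orange and 11 blue.

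Among the death receptors, FAS and the TRAIL receptors all rose after NS siRNA against mock, but went separate ways between the siRNAs. FAS, the receptor of FAS ligand, read 10.21, 10.11 and 10.07 in mock, 10.68 in each NS siRNA array and 11.24, 11.14 and 11.03 after Nrf2 siRNA. The groups rose in that order without overlap. FAS was 1.47-fold above mock after NS siRNA (0.55 ± 0.06; adjusted p = 9.44e-06), 2.01-fold above mock after Nrf2 siRNA (1.01 ± 0.06; adjusted p = 3.34e-08) and 1.37-fold higher in Nrf2 siRNA than in NS siRNA (adjusted p = 2.14e-05). All 5 FAS probe sets were higher against mock with either siRNA, and 4 of 5 were higher in Nrf2 siRNA than in NS siRNA. The FAS probe set outside the _s_at and _x_at classes, at a mean level of 7.60, was 0.32 above mock after Nrf2 siRNA and 0.21 after NS siRNA, and its 0.11 between the siRNAs did not pass (adjusted p = 0.142).

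TNFRSF10A, the TRAIL receptor DR4, had the largest fall among the members between the siRNAs. It read 9.26, 9.24 and 9.0 in mock, 10.05, 10.07 and 10.02 after NS siRNA and 9.0, 8.94 and 9.03 after Nrf2 siRNA. The NS siRNA arrays lay above all others, and the Nrf2 siRNA arrays overlapped mock. The rise after NS siRNA was 1.84-fold (adjusted p = 4.57e-07), and the level after Nrf2 siRNA was 2.08-fold lower than after NS siRNA (-1.06 ± 0.06; adjusted p = 2.99e-08); all 3 probe sets were called alike in both comparisons. Its difference of -0.18 ± 0.06 from mock had adjusted p = 0.0485 and was lost in 8 of the 9 fits that left out 1 array (0.0596 to 0.195), while its other 2 probe sets, adjusted over all probe sets, were lower than mock (-0.33, adjusted p = 6.98e-04, and -0.26, adjusted p = 0.00167). The sister receptor DR5, TNFRSF10B, kept part of its rise. It read 11.58, 11.58 and 11.59 in mock, 12.25, 12.24 and 12.23 after NS siRNA and 12.02, 11.99 and 11.96 after Nrf2 siRNA. Nrf2 siRNA thus lay between the controls, 0.25 below NS siRNA (adjusted p = 1.94e-04) and 0.41 above mock (adjusted p = 5.49e-06). Of 4 TNFRSF10B probe sets 3 showed the fall and 1 the rise over mock.

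CYFIP2, a p53-inducible partner of the FMR1 protein, read 9.65, 9.69 and 9.59 in mock, 9.72, 9.62 and 9.67 after NS siRNA and 10.48, 10.45 and 10.23 after Nrf2 siRNA. Only the Nrf2 siRNA arrays stood apart, 1.65-fold above NS siRNA (0.72 ± 0.06; adjusted p = 1.01e-06), and both probe sets rose. PERP, a membrane protein of apoptosis and desmosomes, read 12.22 to 12.29 in mock, 12.66 in each NS siRNA array and 12.77 to 12.79 after Nrf2 siRNA. It rose 1.32-fold and 1.43-fold over mock, and its difference of 0.12 between the siRNAs was lost in 5 of the 9 fits without 1 array. In the brightest PERP probe set outside the _s_at and _x_at classes, whose probes can match several transcripts, none of these differences passed (0.03 and 0.03 from mock, adjusted p = 0.718 and 0.76, and 0.00 between the siRNAs). A dimmer PERP probe set outside these classes, at a mean level of 7.54, was called higher than mock with either siRNA. Its differences from mock were 0.31 after NS siRNA and 0.47 after Nrf2 siRNA. The dimmest, at 4.70, was not called. Of 5 PERP probe sets, 3 were called higher than mock after each siRNA and 1 was called higher between the siRNAs.

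AEN, an apoptosis-enhancing nuclease, and EDA2R, a receptor of the TNF family, were higher against mock with both siRNAs. The differences were 0.32 and 0.22 for AEN, and 0.34 and 0.21 for EDA2R, with NS siRNA given first. Neither passed between the siRNAs (-0.09, 95% interval -0.20 to 0.02, for AEN and -0.14, -0.29 to 0.02, for EDA2R), and the EDA2R call of Nrf2 siRNA against mock was lost in 5 of the 9 fits without 1 array. SPATA18, which acts in mitochondrial quality control, differed from mock by 0.29 after Nrf2 siRNA (adjusted p = 8.80e-04). Its other comparisons, 0.15 for NS siRNA against mock and 0.14 between the siRNAs, each lost the call in 6 of the 9 fits without 1 array. The dimmer SPATA18 probe set read 0.95 above mock and 0.82 above NS siRNA.

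TP53I3, a quinone oxidoreductase induced by p53, was the member that was highest in mock. It read 12.37, 12.49 and 12.44 in mock, 12.24, 12.32 and 12.24 after NS siRNA and 12.24, 12.34 and 12.24 after Nrf2 siRNA. The mock arrays lay above the other 6. Both differences from mock were -0.16 ± 0.05 (adjusted p = 0.0235 and 0.0245), each lost in 4 of the 9 fits without 1 array, and the siRNA groups differed by 0.00 (95% interval -0.10 to 0.11). PHLDA3, an inhibitor of AKT signalling, did not pass in any comparison, with differences from mock of 0.15 after either siRNA (adjusted p = 0.0708 and 0.0754).

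The DNA repair and nucleotide supply genes mostly stood highest after Nrf2 siRNA, where 28.5% of all genes were highest. XPC, the damage sensor of nucleotide excision repair, read 11.04, 11.07 and 10.97 in mock, 11.26, 11.26 and 11.21 after NS siRNA and 11.52, 11.48 and 11.48 after Nrf2 siRNA. The 3 groups rose in steps without overlap, by 0.22 ± 0.04 (adjusted p = 0.00179) and a further 0.25 ± 0.04 (adjusted p = 4.17e-04). DDB2, which recognises ultraviolet lesions, was 0.22 above mock after Nrf2 siRNA (adjusted p = 0.00234). Its 0.14 over NS siRNA was lost in 4 of the 9 fits without 1 array and with quantile normalization (0.10, adjusted p = 0.0512). RRM2B, the p53-induced subunit of ribonucleotide reductase, read 9.93, 9.94 and 9.89 in mock, 10.08, 10.02 and 9.96 after NS siRNA and 10.16, 10.31 and 10.17 after Nrf2 siRNA. Its 0.20 ± 0.05 over NS siRNA (adjusted p = 0.00733) and 0.30 ± 0.05 over mock both passed.

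The remaining members of that role were flat or went the other way. RPS27L, a ribosomal protein homologue that stabilises p53, was highest after NS siRNA, 0.18 above mock (adjusted p = 0.00594). It was 0.13 lower after Nrf2 siRNA than after NS siRNA, a call lost in 4 of the 9 fits without 1 array and with equal array medians (adjusted p = 0.0754). RPS27L is similar in sequence to RPS27, so its level is uncertain. POLH, the translesion DNA polymerase eta, did not pass in any comparison with its brightest probe set, and its 6 probe sets disagreed: after NS siRNA 2 were called higher and 1 lower than mock.

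Of 7 measured growth arrest and stress genes, 5 fell between the siRNAs and 1, BTG1, rose (26.6% and 21% of all genes). PLK2, a polo-like kinase of the stress response, read 11.94, 11.90 and 11.97 in mock, 12.77, 12.76 and 12.62 after NS siRNA and 11.61, 11.71 and 11.67 after Nrf2 siRNA. None of the groups overlapped. NS siRNA was 1.71-fold above mock (adjusted p = 2.48e-07), and Nrf2 siRNA was 2.07-fold below NS siRNA (-1.05 ± 0.05; adjusted p = 5.36e-09) and 0.28 below mock (adjusted p = 0.00114). GDF15, a secreted stress cytokine of the TGF-beta family, had the largest rise after NS siRNA. It read 10.20, 10.23 and 10.06 in mock, 11.19, 11.14 and 11.16 after NS siRNA and 10.93, 10.86 and 10.85 after Nrf2 siRNA. Nrf2 siRNA lay between the controls, 1.64-fold above mock (0.72 ± 0.05; adjusted p = 3.52e-07) and 0.28 below NS siRNA (adjusted p = 5.88e-04). These GDF15 values come from an _x_at probe set; its 2 dim probe sets, at mean levels of 6.71 and 6.23, passed in neither comparison with mock.

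GADD45A, a growth arrest protein that binds PCNA and p21, read 11.11, 11.17 and 11.11 in mock, 11.71, 11.73 and 11.68 after NS siRNA and 11.41, 11.45 and 11.39 after Nrf2 siRNA. The groups did not overlap, with Nrf2 siRNA in the middle, 0.28 ± 0.04 above mock (adjusted p = 2.01e-04) and 0.29 ± 0.04 below NS siRNA (adjusted p = 8.42e-05). ZMAT3, an RNA-binding zinc finger protein, had the same order. It read 9.67, 9.79 and 9.57 in mock, 10.23, 10.14 and 10.18 after NS siRNA and 9.83, 9.96 and 9.91 after Nrf2 siRNA, and each of its 5 probe sets rose after NS siRNA and was lower after Nrf2 siRNA than after NS siRNA. IER5, an immediate early gene, read 11.85, 11.80 and 11.82 in mock, 12.36, 12.35 and 12.38 after NS siRNA and 11.83, 11.90 and 11.92 after Nrf2 siRNA. The last group overlapped mock (difference 0.06, 95% interval -0.03 to 0.15), 0.48 below NS siRNA (adjusted p = 1.13e-06).

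BTG1, an antiproliferative partner of the CCR4-NOT deadenylase, ran opposite to these. It read 12.59, 12.61 and 12.59 in mock, 12.42, 12.36 and 12.36 after NS siRNA and 12.64, 12.69 and 12.73 after Nrf2 siRNA. Its difference from mock after NS siRNA was -0.22 ± 0.04 (adjusted p = 0.00181), and it was 0.31 higher in Nrf2 siRNA than in NS siRNA (adjusted p = 6.11e-05). Neither passed in the dim BTG1 probe set outside the _s_at and _x_at classes (-0.12, adjusted p = 0.284, and 0.15, adjusted p = 0.13). PLK3, another polo-like kinase, differed from mock by 0.30 ± 0.08 after Nrf2 siRNA (adjusted p = 0.0116), a call lost without mock replicate 1 (0.0557) or Nrf2 siRNA replicate 1 (0.0524).

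The 2 measured redox and metabolic members stood highest after NS siRNA, as did 49.0% of all genes. SESN1, a sestrin that restrains mTORC1 and supports peroxiredoxin recycling, read 9.39, 9.39 and 9.28 in mock, 10.05, 10.03 and 9.99 after NS siRNA and 9.82, 9.81 and 9.81 after Nrf2 siRNA. It was 1.59-fold above mock after NS siRNA (adjusted p = 2.60e-07) and 1.37-fold after Nrf2 siRNA (adjusted p = 5.57e-06), and the siRNA groups differed by -0.21 ± 0.05 (adjusted p = 0.00178). TIGAR, a fructose bisphosphatase that steers glucose to the pentose phosphate pathway, read 11.26, 11.21 and 11.17 in mock, 11.62, 11.61 and 11.58 after NS siRNA and 11.25, 11.32 and 11.23 after Nrf2 siRNA. Its rise of 0.39 after NS siRNA (adjusted p = 2.37e-05) stood beside a difference of -0.34 between the siRNAs (adjusted p = 3.95e-05), and the Nrf2 siRNA arrays overlapped mock.

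The 30 genes had 80 probe sets, 13 genes with 1 and 17 with several. Among those with several, MDM4 (Nrf2 siRNA against mock) and POLH (NS siRNA against mock) had probe sets called in opposite directions within a comparison. With the gene represented only by probe sets outside the _s_at and _x_at classes, which 25 members had, 6 rose and 9 fell between the siRNAs, 12 rose and 0 fell after NS siRNA against mock, and 16 rose and 1 fell after Nrf2 siRNA against mock. CCNG1, AEN, TP53I3, CYFIP2 and SESN1 had no such probe set. In that setting PERP and GDF15 lost both calls against mock, MDM2 (0.05, adjusted p = 0.558), SPATA18 (0.15, 0.0564) and BTG1 lost theirs for NS siRNA against mock, and TNFRSF10A lost its own for Nrf2 siRNA against mock (-0.18, 0.0571). Between the siRNAs the calls of FAS, PERP, SPATA18 (0.14, 0.0586), RPS27L (-0.07, 0.299) and BTG1 were lost. SPATA18 and TNFRSF10A kept their main probe set in that setting. Their calls moved only because the set of genes fitted and adjusted over differed.

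**Figure D4:**
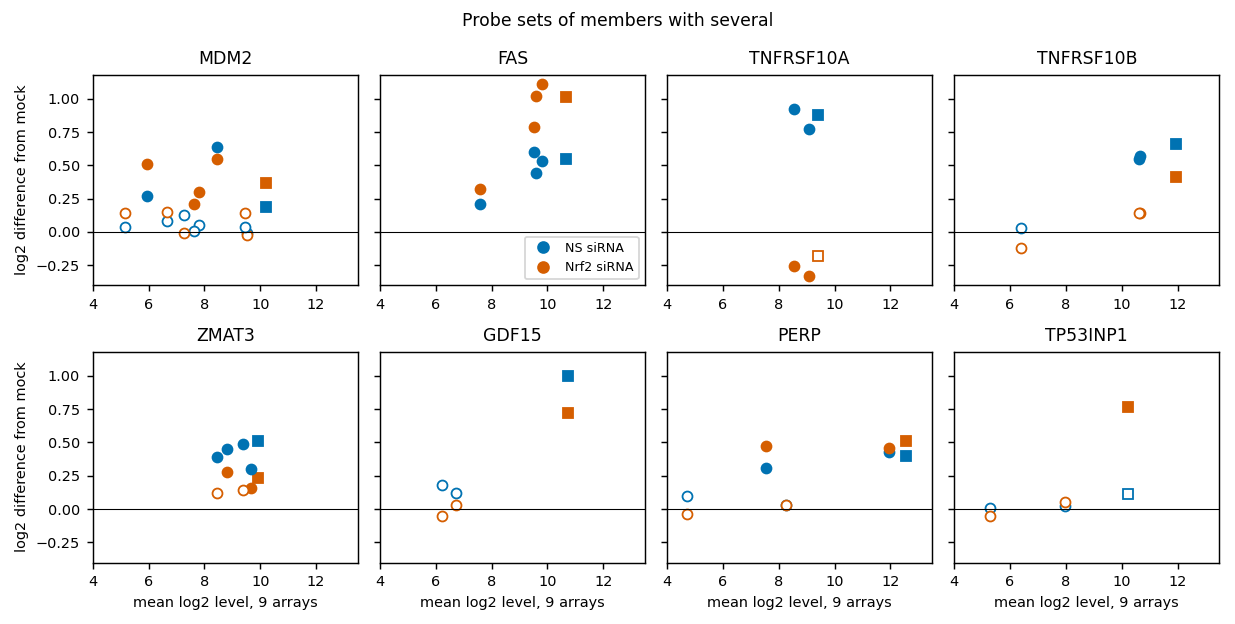
Each point is 1 probe set of 8 p53 target genes with several. The horizontal axis is its mean log2 level over 9 arrays. The vertical axis is its log2 difference from mock after NS siRNA (blue) or Nrf2 siRNA (orange). Squares mark the probe set that stands for the gene. Open symbols did not pass when every probe set was tested, with adjustment over all 41091 single-gene probe sets. All 5 FAS and all 5 ZMAT3 probe sets are filled for NS siRNA, while for GDF15 and TP53INP1 the dim probe sets lie near 0.

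Another 43 measured p53 target genes, outside the 30 members, also rose more often than they fell against mock. After NS siRNA 24 rose and 3 fell against mock, after Nrf2 siRNA 28 rose and 4 fell against mock, and between the siRNAs 15 rose and 14 fell; the background shares are those given above. Their median differences were 0.18, 0.23 and -0.03. CDKN1A, the cyclin-dependent kinase inhibitor p21, read 11.65, 11.74 and 11.65 in mock, 12.11, 12.10 and 12.13 after NS siRNA and 12.01, 12.00 and 12.00 after Nrf2 siRNA. Both siRNA groups lay above mock, by 0.44 (adjusted p = 6.13e-06) and 0.32 (adjusted p = 6.60e-05), and differed from each other by -0.11 (adjusted p = 0.0428). BAX, the pro-apoptotic BCL2 relative, rose by 0.62 after NS siRNA (adjusted p = 0.00143) and differed from mock by -0.49 after Nrf2 siRNA (adjusted p = 0.00657). The last 2 groups overlapped, at 9.75, 9.23 and 9.31 after Nrf2 siRNA and 9.94, 10.09 and 9.73 in mock. Between the siRNAs BAX differed by -1.11 (adjusted p = 5.92e-06), without overlap. BAX has 2 probe sets, and these values come from the brighter, whose replicate SD after Nrf2 siRNA was 0.28. The other BAX probe set was not examined here.

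The genes of this list with the smallest adjusted p went both ways. FUCA1, a lysosomal fucosidase, rose by 1.15 between the siRNAs and SULF2, a heparan sulfate sulfatase, by 1.33; like CCNG1, both were below mock after NS siRNA (-0.43 and -0.41) and above it after Nrf2 siRNA (0.72 and 0.91). UPP1, uridine phosphorylase, went the other way in 2 comparisons, 1.39 above mock after NS siRNA and -1.56 between the siRNAs. Its difference of -0.16 from mock after Nrf2 siRNA did not pass (adjusted p = 0.0889). CROT, a peroxisomal carnitine acyltransferase, rose by 0.71 between the siRNAs and 0.57 against mock.

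Of 15 measured genes of the p53 family and its upstream regulators, 3 rose and 3 fell after NS siRNA against mock (20% each, beside 15.6% and 15.2% of all genes). After Nrf2 siRNA 3 rose and 4 fell against mock (20% and 26.7%, beside 16.4% and 16.7%), and 5 rose and 3 fell between the siRNAs (33.3% and 20%, beside 21% and 26.6%). HIPK2, a kinase that phosphorylates p53, was -0.77 from mock after NS siRNA (adjusted p = 1.24e-07) and 0.67 higher in Nrf2 siRNA than in NS siRNA. The acetyltransferase gene CREBBP moved likewise (-0.39 and 0.61), KAT5, another acetyltransferase, in the opposite way (0.26 and -0.40), and the checkpoint kinase CHEK1 fell by 0.30 against mock after Nrf2 siRNA. CDKN2A, whose product ARF restrains MDM2 and which is known to be deleted in A549, did not pass in any comparison.

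Cell cycle genes known to be repressed through p53, p21 and the DREAM complex were mostly lower after Nrf2 siRNA. Of 15 measured, 11 fell and 0 rose against mock (16.7% and 16.4% of all genes), and 11 fell and 2 rose against NS siRNA (26.6% and 21% of all genes). NS siRNA against mock gave 3 higher and 2 lower (15.6% and 15.2% of all genes). MCM5, a helicase subunit of DNA replication, was at -0.67 from mock and -0.68 from NS siRNA, and CCNA2, cyclin A2, at -0.57 and -0.73. CDC20, an activator of the anaphase-promoting complex, and CCNB1, cyclin B1, rose after NS siRNA (0.32 and 0.30) and were below mock after Nrf2 siRNA (-0.29 and -0.26).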

How the data were processed

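The deposited table holds log2 expression values of 54675 probe sets on 9 arrays, made by the authors with RMA (which normalizes between arrays), per the submitters' processing notes; the sources used here give no version or settings, and detection calls and scan dates were not used. Values ran from 3.60 to 15.06 and were not rescaled. Control probe sets (62) and those with several genes (1801) or none (11721) were left out; 41091 remained. Symbols were updated by Entrez identifier (41037 matched), and the probe set with the highest mean stood for each of 19775 genes. Groups came from the sample titles. The 3 groups were fitted together with limma 3.58.1 in R 4.3.3 (lmFit, eBayes; 6 residual degrees of freedom), two-sided, with Benjamini-Hochberg adjustment over all 19775 genes and a threshold of 0.05. An SE is the model's. The number of arrays limits precision (median replicate SD of members 0.0605). The code was checked on simulated arrays. Figures used matplotlib 3.10.9.

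The members and gene lists were chosen with earlier results of these data known. All 32 members are accounted for; per-array values are given for members that passed without overlap between groups, with FAS, CCNG1, MDM2, CDKN1A, BAX and NFE2L2 always named, and up to 4 genes of each other list by adjusted p. Members without overlap that are given more briefly, and single genes beyond that number, were chosen after their values were seen. Alternatives covered scaling, a filter on dim genes, the choice of probe set, the variance model, the groups fitted, the replicate block, each array left out and a threshold of 0.01. Labels call the replicates biological.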

Additional observations from a re-analysis of the deposited data

How the results depend on the processing

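Of the single-member values under 20 alternatives, most kept their direction and side of the threshold: 553 of 595 for NS siRNA against mock, 548 of 595 for Nrf2 siRNA against mock and 544 of 595 between the siRNAs. The counts of members called moved by more than 1.5 times in few settings. Outside the _s_at and _x_at classes 6 members rose between the siRNAs (12 in the main setting), 1 fell after Nrf2 siRNA against mock (3) and 0 fell after NS siRNA against mock (3); this setting tests 25 members. At a threshold of 0.01, 1 member fell after Nrf2 siRNA against mock. Leaving out each array in turn gave 18 to 21 higher and 1 to 2 lower for Nrf2 siRNA against mock (1 lower without mock replicate 2 or Nrf2 siRNA replicate 1 or 3), 16 to 19 higher and 2 to 3 lower for NS siRNA against mock, and 8 to 12 higher and 10 to 12 lower between the siRNAs, where the count of 8 came from leaving out replicate 1 of NS siRNA or replicate 3 of Nrf2 siRNA. Reversals came from another choice of probe set. With the most variable one, MDM2 was at -0.09 and POLH at 0.35 between the siRNAs, and POLH at -0.25 for NS siRNA against mock. Outside the _s_at and _x_at classes PERP was at 0.00 between the siRNAs and GDF15 at -0.05 for Nrf2 siRNA against mock, and the mean of its probe sets put MDM4 at -0.02 against mock. Same-numbered arrays had correlations of their deviations from -0.174 to 0.186, and differently numbered arrays from -0.285 to 0.145. With 3 arrays per group these overlapping ranges cannot decide whether the replicate numbers pair the arrays. With the replicate block 22 members rose and 2 fell for Nrf2 siRNA against mock, 19 and 3 for NS siRNA against mock, and 12 and 11 between the siRNAs. Without scanner files, signal over background was not tested; all 30 members lay above the median of all probe sets.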
